A study of Mus musculus with 2 samples.

Results

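The genes described here encode extracellular and lysosomal proteases measured in mouse granulosa cells that lacked or retained estrogen receptor beta. Members were chosen by gene symbol, by a rule that uses no measured value but was written with earlier results of these data known: Plat, Plau, Plaur, Plg, Furin and Htra1, and every symbol that starts with Mmp or Adam and a digit, with Adamts, with Cts and a letter, or with Pcsk, Klk or Prss. The rule found 94 of the 20714 genes and unnamed transcripts on the array, each with 1 probe, and 89 were named through the accession and 5 through the description in the files. They comprised 17 matrix metalloproteinases (MMPs), 17 kallikreins, 16 ADAM (a disintegrin and metalloproteinase) genes, 16 cathepsins, 14 Prss serine protease genes, 5 proprotein convertase genes, 4 plasminogen activation genes, 4 ADAMTS (ADAM with thrombospondin motifs) genes and Htra1. Some members are not themselves active proteases. Among them, Plaur is a receptor, Pcsk1n encodes an inhibitor of a convertase, Adamtsl5 lacks the protease domain and Adam23 lacks an active protease site.

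Granulosa cells line the ovarian follicle around the oocyte and make estradiol from androgen under follicle-stimulating hormone. The 2 groups were an Esr2-/- (null) pool, with no intact copy of the estrogen receptor beta gene Esr2, and an Esr2+/- (het) pool, whose cells keep 1 intact copy, so that no wild-type cells were compared. All animals were C57/Bl6 females aged 23 to 25 days that had been treated for 48 h with PMSG, a gonadotropin preparation that stands in for follicle-stimulating hormone, and the labels name no ovulatory stimulus. Granulosa cells were pooled by genotype into 1 RNA sample each, and both samples were hybridised together on 2 Agilent two-colour 60-mer arrays. Cy5 marked the null pool on array 1 and the het pool on array 2, with Cy3 on the other pool. The arrays are technical repeats, so every SD below covers hybridisation and dye only, the spread between animals was not measured, no p-value of a genotype difference is given, and a difference between the pools need not be a difference between the genotypes.

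Proteases of the follicle act in cascades. The plasminogen activators cut plasminogen to plasmin, which degrades fibrin and activates latent MMPs. MMPs cleave collagens and other components of the follicle wall, ADAM proteins shed membrane-bound growth factors, and ADAMTS enzymes cut proteoglycans such as versican. Proprotein convertases activate many of these enzymes and hormones on their way to the cell surface, whereas cathepsins degrade protein chiefly inside lysosomes. In rodents the activity of several of these enzymes is known to change as gonadotropins bring follicles to ovulation.

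Promoter windows from 250 bases before to 50 bases after the annotated start (RefSeq, GRCm38.p6) were found for 70 of the 94 members, and for genes with several windows the first one listed was read. Those of the 3 members with the highest ratio that have a window, Mmp11, Htra1 and Adam23, are shown because these genes carry the differences described below. The window of Ctss is added as that of the member with the highest ratio among those holding an AGGTCA motif. Each is written 5′ to 3′ on the strand of the gene, and capitals mark motif matches. In Mmp11 and Htra1 these are GC boxes (GGGCGG), and in Ctss 1 AGGTCA motif, a single arm of the estrogen response element, and 1 GC box, read on either strand. They lie at chr10:75932453-75932752 (minus strand) for Mmp11, chr7:130935953-130936252 (plus strand) for Htra1, chr1:63445641-63445940 (plus strand) for Adam23 and chr3:95526536-95526835 (plus strand) for Ctss.
Mmp11: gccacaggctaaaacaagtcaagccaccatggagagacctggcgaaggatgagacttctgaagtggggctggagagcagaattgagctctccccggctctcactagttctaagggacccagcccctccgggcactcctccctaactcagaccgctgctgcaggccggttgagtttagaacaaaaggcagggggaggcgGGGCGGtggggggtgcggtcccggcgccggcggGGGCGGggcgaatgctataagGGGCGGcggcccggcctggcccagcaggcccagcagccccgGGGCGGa
Htra1: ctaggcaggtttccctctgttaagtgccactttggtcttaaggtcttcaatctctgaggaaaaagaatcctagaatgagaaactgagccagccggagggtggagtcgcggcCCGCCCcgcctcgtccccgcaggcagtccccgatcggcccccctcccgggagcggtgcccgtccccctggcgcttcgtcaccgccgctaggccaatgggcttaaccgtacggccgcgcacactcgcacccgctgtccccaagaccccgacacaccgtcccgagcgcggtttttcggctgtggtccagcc
Adam23: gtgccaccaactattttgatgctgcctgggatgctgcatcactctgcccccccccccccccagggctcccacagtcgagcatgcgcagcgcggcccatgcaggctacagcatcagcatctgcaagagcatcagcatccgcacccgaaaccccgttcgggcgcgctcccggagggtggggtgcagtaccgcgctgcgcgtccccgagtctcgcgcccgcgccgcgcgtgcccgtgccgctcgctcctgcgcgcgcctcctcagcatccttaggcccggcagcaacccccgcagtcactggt
Ctss: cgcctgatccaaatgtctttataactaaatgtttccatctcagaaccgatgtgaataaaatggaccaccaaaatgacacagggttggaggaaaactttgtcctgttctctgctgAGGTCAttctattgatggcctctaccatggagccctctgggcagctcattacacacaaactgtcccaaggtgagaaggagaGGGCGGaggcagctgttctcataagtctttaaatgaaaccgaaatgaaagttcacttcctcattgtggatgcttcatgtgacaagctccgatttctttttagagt

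The windows of Mmp11, Htra1 and Adam23 were 67%, 65% and 70% G or C, and that of Ctss was 44%, beside a median of 52.7% over all windows. Mmp11 held 4 GC boxes, Htra1 and Ctss held 1 each and Adam23 held none. The full palindromic estrogen response element (AGGTCA and its inverted copy with 3 bases between them, so that each match also counts as an AGGTCA match) was in 0 of the 70 member windows and in 0.0148% of the windows of 27025 genes. AGGTCA was in 20 member windows (28.6%, against 16% of all), an AP-1 site (TGANTCA) in 8 (11.4%, against 7.93%), a cAMP response element (TGACGTCA) in 1 (1.43%, against 1.88%) and a GC box in 27 (38.6%, against 35.9%), each read on both strands.
AGGTCA was in 8 of 17 kallikrein windows, 7 of 13 cathepsin windows, 2 of 11 Prss windows, 1 of 12 MMP windows, 1 of 8 ADAM windows and 1 of 2 ADAMTS windows. The kallikrein genes arose largely by duplication, so their matches need not be separate occurrences. Among members measured above background, the 18 with AGGTCA had a median log2 ratio of -0.0045 and the 48 without had -0.0015. The data hold no measurement of receptor binding at any of these windows.

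Throughout, ratios are log2 of null over het, with the array 1 value given before the array 2 value, and levels are normalized log2 signals of a probe in a pool, which are comparable between pools and not between probes. Of all non-control spots, 93.0% and 90.1% were well above background in the null pool on array 1 and array 2, and 87.2% and 95.1% in the het pool. The targeted gene, Esr2, had ratios of -0.50 and -0.46, and where its probe lies relative to the disruption was not given in the sources used here. Among 8 granulosa markers above background, a list that includes Esr2 itself, 6 were lower in the null pool on both arrays (median -0.59). Of the others, Amhr2 was higher (0.37 and 0.33) and Inha had opposite signs. Of all genes, 24.3% were lower and 22.7% higher on both arrays. The summed normalized signal of the 8 was 12768 and 15570 in the null pool, against 29141 and 22386 in the het pool. Inhba had the largest signal in each sum, at 12.65 and 12.87 in the null pool, against 14.16 and 13.68 in the het pool. Cyp19a1, which encodes aromatase, had the lowest ratio of the 8 at -1.27 ± 0.20 (SD, n = 2 technical hybridisations), whereas Fshr had -0.25 and -0.095. In bulk RNA of this kind, fewer cells of a type and less RNA per cell cannot be told apart.

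Of the 94 protease genes, 87 passed the background filter, meaning that the probe was well above background in at least 1 pool on both arrays, and 81 cleared the background in all 4 channels. The 7 that did not pass were Adam7, Adam12, Mmp3, Mmp16, Prss28, Ctsj and Klk1b1. Adam7, Mmp16, Ctsj and Klk1b1 were not well above background in any channel, so for them the array gives no ratio that can be read. Mmp3 and Prss28 were well above background in the null pool on array 1 alone and in the het pool on array 2 alone, both in Cy5. Adam12 was so only in the het pool on array 2.

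Most protease genes had ratios near 0, and the 5 that differed most in the mean were all higher in the null pool. No member reached a mean difference of 2-fold (with 1.5-fold or more on each array, in 1 direction), against 0.0378% of the 18524 genes tested that did so in the higher direction and 0.0918% in the lower. By a smaller size rule (1.5-fold in the mean and at least 0.32 in log2 ratio on each array), 1 member of 87, Mmp11, was higher in the null pool and 0 were lower, against 0.405% and 0.41% of all genes. The mean ratio of 73 members (83.9%) lay within 0.1 of 0, against 77.7% of all genes, and the median over the 87 members was -0.0022, against -0.0038 over all genes.
A ratio of the same sign on both arrays was found for 24 members in the higher direction (27.6%, against 22.7% of all genes) and for 23 in the lower direction (26.4%, against 24.3%), while 40 members had opposite signs (46%, against 53%). These shares are near those of the array as a whole. The counts for families and lists below are to be set beside the same all-gene shares: 22.7% higher, 24.3% lower and 53% opposite. Normalized signals of the pools did not overlap for 10 members that were higher in the null pool (11.5%, against 8.91% of all genes) and for 3 that were lower (3.45%, against 8.45%), namely Adam18, Adam21 and Prss39. The mean difference was at least 1.2-fold in 5 of the 87 members in the higher direction and in 0 of the 87 in the lower, against 2.91% and 2.13% of all genes. The 5 were Mmp11, Htra1, Adam23, Plat and Adam8.

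**Figure D1:**
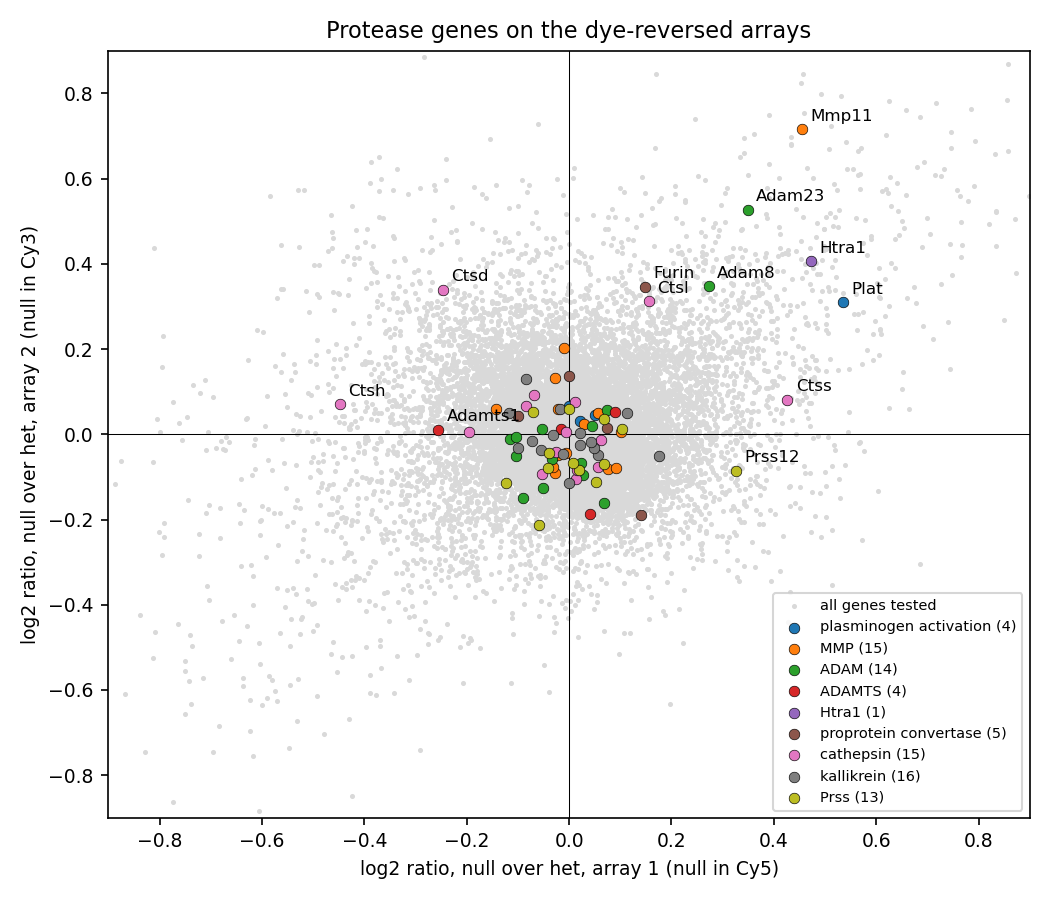
Log2 ratio of null over het on array 1 (x axis) and array 2 (y axis) for the 87 protease genes above background, coloured by family, over all genes tested in grey; genes past 0.9 in size on either array are not drawn. Mmp11, Htra1, Adam23, Plat and Adam8 lie apart in the upper right, and most members crowd around 0.

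The deposited files also carry a p-value of each spot's log ratio from the scanner software's error model, which covers the measurement error of the spot and not animals, RNA or labelling. This call rule was added after the data were seen. It was under 0.05 on both arrays in the same direction for 4 members that were higher in the null pool (4.6% of 87), Mmp11, Htra1, Plat and Adam8, against 1.2% of all genes, and for 0 members that were lower, against 0.756% of all genes.

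Among the plasminogen activation genes, Plat stood apart from its partners. Plat encodes tissue-type plasminogen activator, whose mRNA is stored in the oocyte in mice and rats and is also made by granulosa cells in rats. The Plat probe (NM_008872, chromosome 8) read 10.55 and 10.44 in the null pool, against 10.02 and 10.13 in the het pool, which was 43.6 and 17.3 times the local background in the null pool and 14.5 and 37.3 times in the het pool. Both null values lay above both het values. The ratios were 0.54 and 0.31, a mean of 0.42 ± 0.16 or 1.34-fold, which ranked 184 of 18524 genes from the top. With median centring in place of loess its arrays had opposite signs (1.0 and -0.26, mean 0.37).
Plau, the urokinase-type activator that is the main form in mouse granulosa cells, read 6.72 and 7.06 in the null pool, against 6.70 and 7.03 in the het pool, for a mean ratio of 0.026 ± 0.006. Its cell surface receptor Plaur had 0.033 ± 0.047, and Plg, which encodes plasminogen itself and is made chiefly in the liver, had 0.049 ± 0.004. All 4 genes had ratios above 0 on both arrays, but those of Plau, Plaur and Plg were under 0.1 and their signals did not exceed 4 times the local background in any channel.

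Oocyte markers were higher in the null pool in the same hybridisations. All 9 of the 9 oocyte markers above background (of 10 on the array) had ratios above 0 on both arrays, 4 of them (Gdf9, Zp2, Zp3 and Oosp1) past the 1.5-fold rule, with a median of 0.51. Their summed normalized signal was 15299 and 12523 in the null pool, against 8408 and 8765 in the het pool. The part of the oocyte in the Plat ratio was not tested.

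The MMP family held the member with the highest ratio. Mmp11 encodes stromelysin 3, an MMP that furin activates inside the cell and that degrades intact matrix poorly. Its probe (NM_008606, chromosome 10) read 8.59 and 8.53 in the null pool, against 8.13 and 7.81 in the het pool, and the null values lay above the het values with no overlap. The ratios were 0.45 and 0.72, a mean of 0.59 ± 0.18 or 1.5-fold, rank 75 from the top, with error-model p-values of 0.0034 and 1.2e-05 in the deposited files. This mean sits at the edge of the 1.5-fold rule, whose threshold is 0.585 on the log2 scale, so that small changes of processing move Mmp11 across it. Its mean was 0.71 without the offset of 50, 0.57 with no background subtraction and 0.72 by the scanner software, which also normalizes differently.
The other 14 MMPs above background lay between -0.060 (Mmp21) and 0.096 (Mmp23), and the family had a median of 0.0071 with 4 members higher, 5 lower and 6 of opposite signs on the arrays. Mmp14 encodes the membrane-bound MMP that activates latent Mmp2 with the help of the inhibitor Timp2. Mmp14 read 9.31 and 9.47 in the null pool, against 9.33 and 9.41 in the het pool (mean ratio 0.019 ± 0.057). Mmp2, gelatinase A, read 9.23 and 9.96 in the null pool, against 9.13 and 9.96 in the het pool (0.053 ± 0.068), and Timp2 had -0.041 ± 0.097. For none of these 3 partners was the mean ratio larger than its spread over the hybridisations. Mmp9, gelatinase B, had 0.027 ± 0.004 at no more than 2.91 times the local background. Mmp19, which is induced in mouse follicles around ovulation, had ratios of 0.076 and -0.081.

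**Figure D2:**
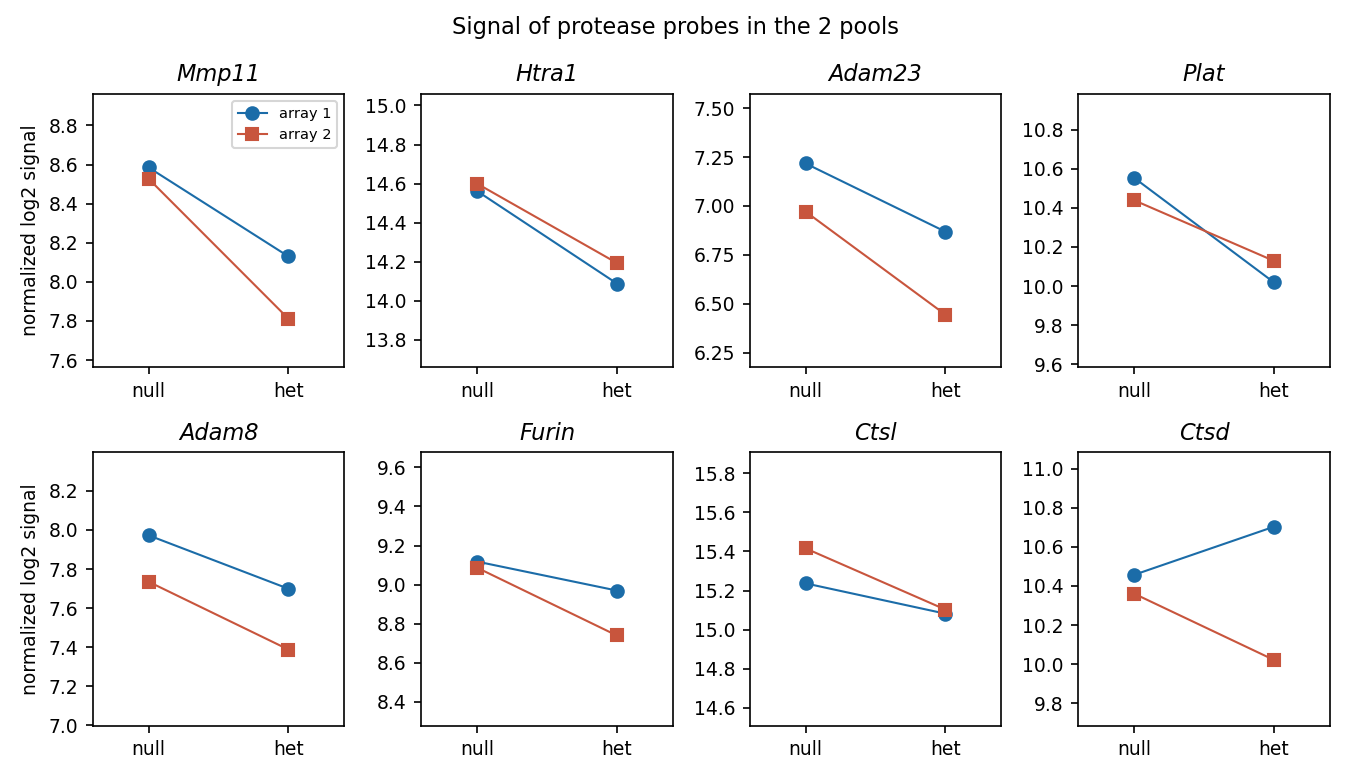
Normalized log2 signal (y axis, each panel spanning 1.4 units) of 8 protease probes in the null pool (left) and the het pool (right), with a line for each array. The null values lie above the het values of the same array for 7 of the genes. Mmp11 read 8.59 and 8.53 in the null pool, against 8.13 and 7.81 in the het pool. The lines of Ctsd slope in opposite directions without crossing.

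Htra1 encodes a secreted serine protease with a region like that of insulin-like growth factor binding proteins, and it cuts fibronectin and proteoglycans. The Htra1 probe (NM_019564, chromosome 7) read 14.56 and 14.60 in the null pool, against 14.09 and 14.19 in the het pool, with no overlap. It was far above background, at 725 and 273 times the local background in the null pool and 228 and 596 times in the het pool. The ratios of 0.47 and 0.41 gave a mean of 0.44 ± 0.05 or 1.36-fold, rank 159 from the top, the closest pair of array values among the 5 members past 1.2-fold. The error-model p-values in the deposited files were 0.0015 and 0.031. With median centring in place of loess its arrays had opposite signs (1.07 and -0.33, mean 0.37). Bright members with loess ratios near 0 split likewise, such as Ctsf (0.44 and -0.54).
The related Htra genes, which the symbol rule did not take, lay on the same side of 0. Htra3, a secreted protease of the same architecture, had ratios of 0.93 and 0.51 (0.72 ± 0.29) and passed the 1.5-fold rule, and the mitochondrial Htra2 had 0.24 and 0.18.

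In the ADAM family, 2 members were set apart. Adam23 encodes a membrane protein that lacks an active protease site and acts in cell adhesion. Its probe (NM_011780, chromosome 1) read 7.22 and 6.97 in the null pool, against 6.87 and 6.44 in the het pool, and the groups did not overlap. The ratios were 0.35 and 0.53, a mean of 0.44 ± 0.13, at only 3.40 and 2.51 times the local background in the null pool and 1.88 and 2.49 times in the het pool. At that brightness the ratio depended on the background step: it was 0.83 without the offset of 50 and 0.90 by the scanner software.
Adam8, named here after its values were seen, encodes a catalytically active sheddase best known from leukocytes. It read 7.97 and 7.74 in the null pool, against 7.70 and 7.39 in the het pool, for ratios of 0.27 and 0.35 and a mean of 0.31 ± 0.05. The groups did not overlap. The leukocyte marker list, given with Ctss, had a median of 0.019, and the part of leukocytes in the Adam8 ratio was not tested.
The other 12 ADAM genes above background lay between -0.12 (Adam18) and 0.065 (Adam17), and the family median was -0.040. Adam10 and Adam17 are the main sheddases of membrane-bound ligands, Adam17 being the enzyme that releases epidermal growth factor-like factors in the follicle. Adam17 had 0.065 ± 0.013 and Adam10 had -0.020 ± 0.046, both at under 2 times the local background, so neither is a firm value. A brighter transcript that the files describe as inferred to be Adam10 (AK021184), outside the symbol rule, read 10.95 and 10.53 in the null pool, against 10.56 and 10.55 in the het pool, and had ratios of 0.39 and -0.014 (0.19 ± 0.29), with opposite signs on the arrays. The Adam17 probe was not well above background in the het pool on array 1. Adam3 and Adam18, which are sperm proteins, had -0.055 ± 0.068 and -0.12 ± 0.04.

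The 4 ADAMTS genes had a median of -0.037. Adamts1, the versican-cleaving enzyme that rises through the progesterone receptor when mouse follicles are triggered to ovulate, read 6.92 and 6.92 in the null pool, against 7.17 and 6.91 in the het pool. Its ratios of -0.26 and 0.01 disagreed, and the mean of -0.12 ± 0.19 was smaller than the spread over the hybridisations. Adamts5, an aggrecanase, was bright enough to be read closely, at 10.2 to 25.0 times the local background, and its ratios were -0.015 and 0.013. Adamts8 had -0.072 ± 0.161 and Adamtsl5 had 0.070 ± 0.027. Versican (Vcan), the substrate of Adamts1 and Adamts5, had ratios of -0.39 and -0.23, lower in the null pool on both arrays, and aggrecan (Acan) had 0.032 ± 0.039.

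Furin, the convertase that activates Mmp11, Mmp14 and many growth factor precursors in the Golgi, read 9.12 and 9.09 in the null pool, against 8.97 and 8.74 in the het pool. These did not overlap, and the ratios of 0.15 and 0.35 gave 0.25 ± 0.14. With median centring in place of loess its arrays had opposite signs (0.53 and -0.12, mean 0.21). The error-model p-value in the deposited files was 0.39 on array 1 and 0.025 on array 2. The convertases of neuroendocrine cells stood closer to 0, with 0.069 ± 0.097 for Pcsk2 and -0.025 ± 0.234 for Pcsk1, whose arrays had opposite signs. Pcsk7, a broadly expressed convertase, had 0.044 ± 0.042, and Pcsk1n had -0.029 ± 0.101.

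**Figure D3:**
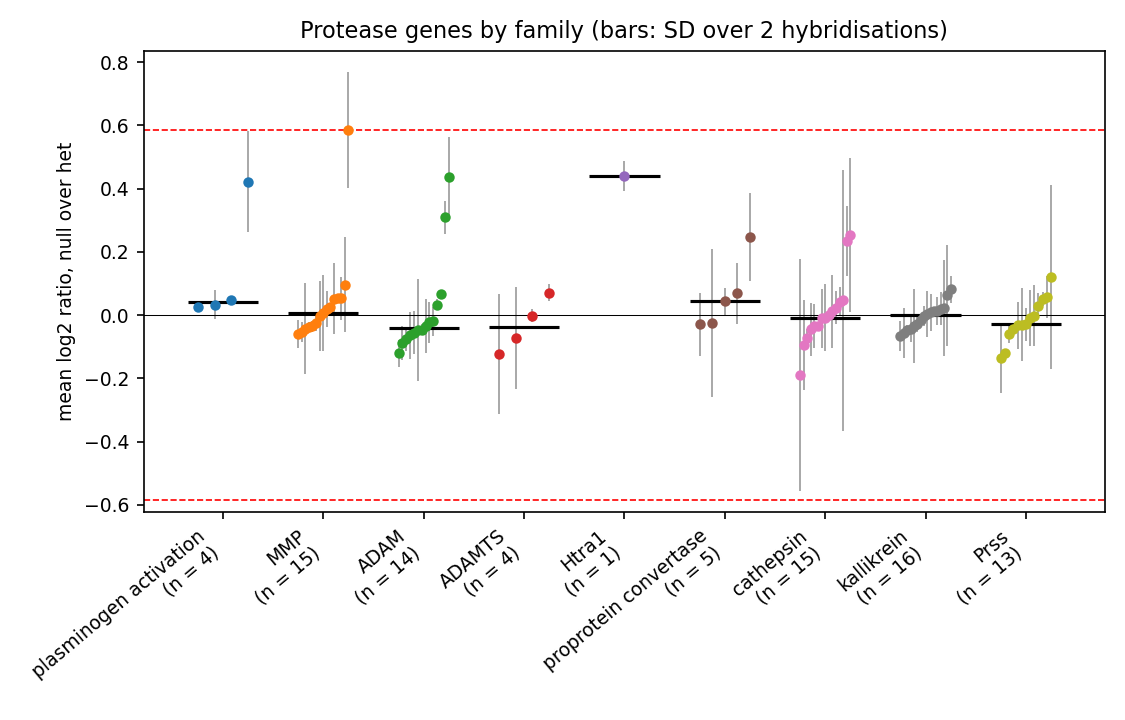
Mean log2 ratio of null over het (y axis) for each protease gene above background, grouped by family, with the SD over 2 technical hybridisations as bars, family medians as black lines and the 1.5-fold threshold as dashed red lines. Mmp11 touches the upper dashed line at 0.59, no gene comes near the lower one, and all 16 kallikreins lie within 0.1 of 0.

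Cathepsins as a family did not differ in one direction. Of 15 above background, 3 were higher and 2 lower on both arrays and 10 had opposite signs, with a median of -0.0081. Among all genes, 22.7% were higher, 24.3% lower and 53% of opposite signs. The highest were Ctss and Ctsl. Ctsl, a cysteine protease that rises through the progesterone receptor in ovulating mouse follicles, read 15.24 and 15.42 in the null pool, against 15.08 and 15.10 in the het pool, without overlap, for ratios of 0.16 and 0.31 and a mean of 0.23 ± 0.11. The null spot on array 1 was saturated, and the het spot on array 2 was bright at a raw intensity of 64836 against 65315 for the saturated spot, so both ratios of Ctsl were measured at the top of the scanner's range. With the null signal clipped, the array 1 ratio is a lower bound. Any clipping of the het signal on array 2 would make that ratio too high instead. The mean and SD carry both, so the mean is not a lower bound. With median centring in place of loess the arrays had opposite signs (0.78 and -0.46, mean 0.16). The error-model p-values in the deposited files were 0.15 and 0.14.
Ctss, the cathepsin of antigen-presenting cells, read 7.52 and 7.04 in the null pool, against 7.09 and 6.96 in the het pool, and the groups overlapped. Its ratios of 0.43 and 0.08 gave 0.25 ± 0.24, about the size of its spread. Of 12 macrophage and other leukocyte markers above background (of 14 on the array), on both arrays 7 were higher in the null pool and 0 lower. The shares of all genes were 22.7% and 24.3%. The median of the 12 was 0.019, and 0 passed the 1.5-fold rule. Lyz2 (0.46 ± 0.05) and C1qa (0.37 ± 0.18) were the highest, while Csf1r (0.0040 ± 0.0599) and Cd68 (0.015 ± 0.159) were near 0. Their summed signal was 3153 and 3478 in the null pool, against 2912 and 3405 in the het pool. The part of leukocytes in the Ctss ratio was not tested.

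Several cathepsins gave different answers on the arrays, where 53% of all genes had ratios of opposite sign. Ctsd, the main lysosomal aspartic protease, read 10.46 and 10.36 in the null pool, against 10.70 and 10.02 in the het pool, and had ratios of -0.25 and 0.34. On both arrays the Cy3 channel was the brighter one after normalization, whichever pool it carried, and the mean of 0.047 ± 0.414 was smaller than its spread. Ctsh, an aminopeptidase and the lowest member in the mean, had -0.45 and 0.07 (-0.19 ± 0.37) and read 6.78 and 6.84 in the null pool, against 7.23 and 6.77 in the het pool. Ctsz, a carboxypeptidase, had -0.20 and 0.005 at 13.9 to 35.8 times the local background.
The remaining cathepsins were near 0. Ctsf, a broadly expressed lysosomal cysteine protease, had ratios of -0.006 and 0.004, at levels of 10.03 and 9.92 in the null pool, against 10.03 and 9.92 in the het pool. Ctsa, which protects lysosomal glycosidases, had 0.012 ± 0.114, and Ctsk, known for collagen breakdown by osteoclasts, had 0.024 ± 0.053 at no more than 2.55 times the local background. Ctsr, Ctsq, Ctsm and Ctsll3, which belong to a cluster known from the placenta, lay between -0.073 and -0.0081. Whether these related genes share signal on a 60-mer probe was not tested.

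Kallikreins had the narrowest range of mean ratios among the families as processed here. All 16 above background had mean ratios within 0.1 of 0, between -0.066 (Klk1b8) and 0.081 (Klk1b21), with a median of 0.00097. Of these, 2 were higher and 6 lower on both arrays. Their median signal was only 2.58 times the local background, and the offset pulls dim ratios toward 0. Without the offset, Klk1b27 (0.23), Klk1b8 (-0.17), Klk1b21 (0.15) and Klk1b16 (-0.13) lay further out, and the others stayed within 0.1 of 0. The range was then no longer the narrowest, since the convertases lay between -0.046 (Pcsk1n) and 0.27 (Furin). Klk1, tissue kallikrein, which releases kinins, had 0.008 ± 0.058. Of the 17 kallikrein symbols, 16 map to chromosome 7. The Klk1b genes there are close copies of each other, so their probes may read several genes at once. The other symbol, Klkb1, is plasma kallikrein of the liver, on chromosome 8, with 0.023 ± 0.151.

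The Prss genes had a median of -0.029, with 2 of 13 higher and 4 lower on both arrays. Prss39, known from the testis, was lowest at -0.14 ± 0.11 and no more than 2.09 times the local background, with 6.14 and 6.16 in the null pool, against 6.20 and 6.38 in the het pool. Prss12, neurotrypsin, was highest in the mean at 0.12 ± 0.29, with ratios of opposite sign (0.33 and -0.085). Prss2 and Prss3, trypsinogens of the exocrine pancreas and also close copies, had -0.12 ± 0.01 and -0.030 ± 0.117. For the pancreas marker list, 1 of 5 genes was higher and 2 lower on both arrays, with a median of 0.011.

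Some transcripts that the files describe as proteases carried no symbol and so fell outside the rule. Of 9 such transcripts 8 passed the background filter. One described as cathepsin B (AK083393) had ratios of 0.41 and 0.14 (0.27 ± 0.19), one described as the ADAMTS-2 type (AK040370) had 0.20 and 0.37 (0.29 ± 0.12), and one described as the ADAMTS-4 type (AK083534) had 0.21 and 0.06 (0.14 ± 0.11). One described as cathepsin C (AK049406) had -0.12 ± 0.003.

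Proteases were set beside their inhibitors, substrates and neighbouring enzymes. Of 22 protease inhibitors above background, 5 were higher and 7 lower on both arrays (median -0.016), against 22.7% and 24.3% of all genes. Serpinf1, which encodes pigment epithelium-derived factor, a serpin that does not inhibit proteases, was higher in the null pool by the 1.5-fold rule (1.10 and 0.87), and Mug1, a broad-range inhibitor of the alpha-macroglobulin type, was lower by the 2-fold rule (-1.06 and -1.12). Serpinb6a, an intracellular serpin, had 0.51 and 0.52, short of the 1.5-fold rule. Serpine2, protease nexin 1, which inhibits thrombin and the plasminogen activators, had 0.13 ± 0.17. Cst3, cystatin C, which inhibits cysteine cathepsins, had 0.28 and 0.20, and Timp3 had -0.25 and 0.02.
Of 19 matrix and substrate genes, 8 were higher and 7 lower on both arrays (median 0.016), with the basement membrane gene Nid2 higher (1.32 ± 0.03) and the matrix glycoprotein gene Comp lower (-2.36 ± 0.63) by the 2-fold rule. Of 22 other extracellular proteases, 7 were higher and 7 lower (median 0.0029). Htra3, given above, was highest, and Cpxm1, a member of the carboxypeptidase family, was lowest (-0.56 ± 0.17). Of 31 other lysosomal genes, 3 were higher, 6 lower and 22 of opposite signs (median -0.029), between -0.24 (Tpp1) and 0.26 (Npc1). Opposite signs were found for 53% of all genes. Lysosomal Psap, with -0.36 and 0.51, and Npc2, with -0.22 and 0.45, had the same disagreement between arrays as Ctsd.

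**Figure D4:**
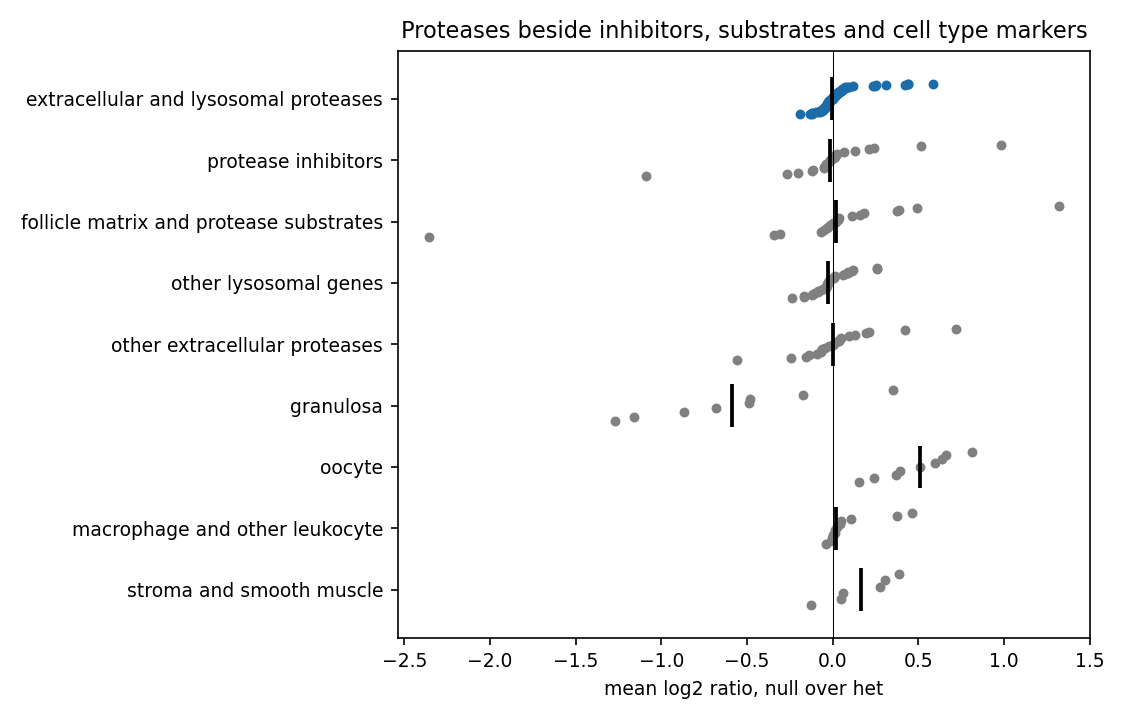
Mean log2 ratio of null over het (x axis) for the protease genes (blue) and for genes of 8 other lists (grey), with medians as black bars. The proteases and the inhibitor, substrate, lysosomal and other protease lists have medians between -0.029 and 0.016, while granulosa markers have -0.59 and oocyte markers 0.51.

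Markers of other cell types were read in the same way, beside 22.7% higher and 24.3% lower on both arrays among all genes. None of 5 theca markers was higher and 3 were lower on both arrays (median -0.031), and 0 of 10 mast cell and neutrophil markers were higher and 3 lower (-0.022). Of 6 stroma and smooth muscle markers 4 were higher and 0 lower (median 0.17, with Dcn the highest at 0.39 ± 0.06), and their summed signal was 3147 and 3715 in the null pool, against 3573 and 3141 in the het pool. Mmp11 and Htra1 are also made by stromal cells in other tissues, and the part of stroma in their ratios was not tested. Of 7 surface epithelium markers 5 were higher and 2 lower (0.15), of 5 endothelial markers 1 was higher and 2 lower (-0.036), and all 4 erythroid markers had opposite signs on the arrays (0.069).

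**Figure D5:**
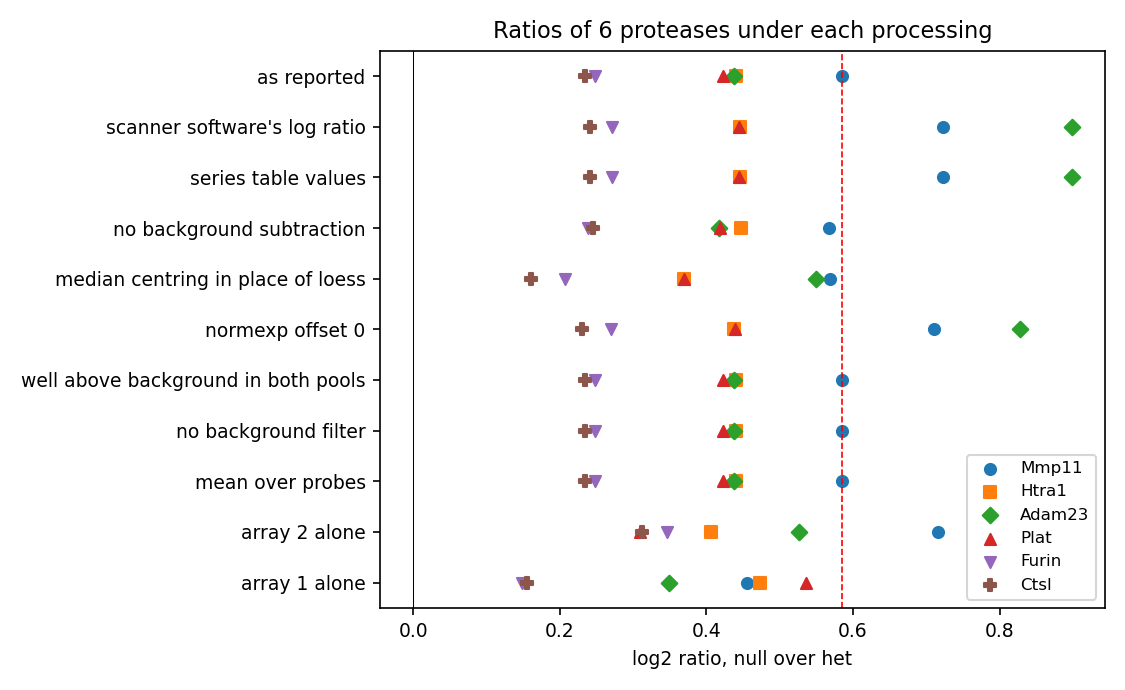
Log2 ratio of null over het (x axis) of 6 proteases as reported and under each alternative processing (rows), with the 1.5-fold size in dashed red. All values lie above 0, Mmp11 stays between 0.45 and 0.72, and Adam23 moves most, from 0.35 to 0.90.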

How the data were processed

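RNA from 1 null and 1 het granulosa cell pool was read on 2 dye-reversed arrays. The authors deposited scanner files made with Agilent Feature Extraction A.7.5.1, per the file headers, which hold spot and local background intensity in both channels, a log10 ratio of Cy5 over Cy3 and the software's p-value for it. The deposited series table holds log2 ratios, which lay within 0.001 of the scanner ratio for 99.8% of spots; both columns are Cy5 over Cy3, not turned to one genotype direction, and their medians are 0 and 0.0022.

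Computed here in R 4.3.3 with limma 3.58.1 and Python 3.11.15: normexp background correction of mean signals (offset 50, which pulls dim ratios toward 0), loess within each array, control and outlier-flagged spots (146 probes) left out, array 2 turned in sign, and levels by Aquantile scaling. Symbols came from accessions matched to RefSeq GRCm38.p6 (8947 of 20868 probes) or from a symbol in the description (964); 10957 had none. The brightest probe stood for a gene. With 1 pool per genotype no test was possible, and size rules were used. The number of arrays limits the precision.

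Members and gene lists were chosen with earlier results of these data known. Named members were a fixed list, the highest and lowest of each family and those past the 1.5-fold rule; Mmp23, Adam8 and further members were added after their values were seen, to describe each family. Alternatives tried were the scanner software's ratio, the series table, offset 0, uncorrected signals, centring on the median instead of loess, a looser and a stricter background filter, averaging a gene's probes, and either array by itself.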

Additional observations from a re-analysis of the deposited data

How the results depend on the processing

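Each ratio compares the pools within 1 array, and with a single pool per genotype no analysis over biological replicates was possible. Under every alternative run, 0 members passed the 2-fold rule in either direction and 0 were lower by the 1.5-fold rule. The count of members higher by the 1.5-fold rule was 1 (Mmp11) as reported and was 2 (Adam23 and Mmp11) with the scanner software's ratio, the series table values and offset 0; it was 0 with no background subtraction and with median centring, and 0 to 1 with 1 array alone (0 with array 1 alone, 1 with array 2 alone). Mmp11 had 0.57 with no background subtraction, 0.57 with median centring and 0.45 with array 1 alone, each under the threshold of 0.585. Adam23 rose to 0.83 with offset 0 and to 0.90 with the scanner software's ratio. Beyond these values, the cause was not tested. The median over the members, -0.0022 as reported, was -0.0105 with the scanner software's ratio and with the series table, -0.0057 with no background subtraction, -0.024 with median centring, -0.0053 with offset 0 and -0.0066 with no background filter; with 1 array alone it was -0.0025 to 0.00041. Among all genes, the 75 higher and 76 lower by the 1.5-fold rule became 190 and 169 with the scanner software's ratio, 152 and 147 with offset 0, 34 and 63 with median centring, 103 and 153 with array 1 alone and 88 and 64 with array 2 alone. The sign of the mean stayed the same in 17 of 32 named members under every alternative run, among them Mmp11, Htra1, Adam23, Plat, Furin, Ctsl and Ctss; both filters and the mean over probes leave a single member's ratio as it is, since each has 1 probe. Under median centring, though, the arrays of bright genes had opposite signs, as given above for Htra1, Plat, Furin and Ctsl. Bright members with loess ratios near 0 did the same, such as Ctsf (0.44 and -0.54) and Adamts5 (0.42 and -0.51). Dim members limit what can be read: the median member signal was 3.07 times the local background.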
